A study of Danio rerio with 31 samples.

Results

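Heat shock factors and the chaperones around them were followed here over 10 genes: the cytosolic chaperones hsp90aa1.1, hsp90aa1.2, hsp90ab1 and hspa8, the endoplasmic reticulum chaperones hspa5 and serpinh1b, the mitochondrial pair hspd1 and hspe1, and the transcription factors hsf1 and hsf2. The members were taken by name, as every probe whose accession RefSeq pairs with one of these symbols. This gave 18 of the 43603 probes on the array, for 9 of the 10 genes, among 11482 genes that could be named in the same way. No probe was matched to hsf1, which was not analysed here. All 18 probes were well above background on every array, and no spot of any of them was saturated.

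Chaperones bind unfolded or partly folded proteins and hold or refold them at the cost of ATP. HSP90 and HSC70 work in the cytosol, BiP and HSP47 in the endoplasmic reticulum, and the chaperonin HSP60 with its lid HSP10 in the mitochondrial matrix. Heat shock factors bind heat shock elements as trimers and drive many of these genes, and in mammals the daily cycle of body temperature drives several of them. The 2 zebrafish hsp90aa1 genes are known from muscle, where the product of hsp90aa1.1 is needed to fold myosin.

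RNA was taken from whole wild-type larvae, pooled by dish with 40 larvae each, and hybridized to 1-colour Agilent arrays. All larvae were raised in a 14 h light and 10 h dark cycle. From 5 days post-fertilization, 12 dishes stayed in that cycle (LD) and 12 were kept in constant darkness (DD). Of each set, 1 dish was taken every 4 h from 0 to 44 h. The move to darkness came before lights-on of that day, so up to 0 h both sets had the same light history. LD minus DD at 0 h thus precedes any difference in lighting, and the 0 h arrays enter the LD and DD comparisons below. A further 7 arrays came from embryos at 48 and 50 hours post-fertilization (hpf): 3 from mitfa morphants (1 at 48 hpf and 2 at 50 hpf), 2 from control morphants and 2 from uninjected wild type (WT), with 1 of each kind of control at each age. Of the 50 hpf mitfa morphant pools, the second had received more morpholino. The mitfa morpholino covers the start codon and blocks translation, so the mitfa transcript level is no check of it. A morpholino also acts in every cell of the embryo, and these are whole-body pools.

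Each condition had 1 array per time point, so the spread in the time course is the scatter of arrays around a fitted 24-h curve. The 12 LD arrays lay on 3 slides and the 12 DD arrays on 3 others, 4 successive time points to a slide, so LD against DD cannot be told apart from slide and scan. The 48 hpf and 50 hpf arrays were likewise on 1 slide each. Between 75.2% and 92% of spots were well above background in the time course and between 71.3% and 75.3% at 48 and 50 hpf, where the signal was lower (median 41.9 to 60.4, against 214.8 to 339.1). Values are log2 signals, quantile-normalized within each of these sets, and levels were not compared between the sets. In whole-body RNA, fewer cells that make a transcript and less transcript per cell cannot be told apart. Every member was read from its brightest probe, and the other probes are given by their range and call.

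Of these 9 genes, 5 oscillated in both LD and DD: hsf2, serpinh1b, hsp90aa1.2, hsp90aa1.1 and hspe1. A probe was called oscillating when 24 h was its dominant period and Fisher's g test gave p below 0.5 in both conditions, which is a rule and not an adjusted test. By this rule 6 of the 18 member probes were called, where 12.7% of all 35412 detected probes were. Published calls from these same arrays already listed hsf2, serpinh1b, hsp90aa1.1, hsp90aa1.2 and hsp90ab1 as oscillating. The members were chosen with earlier results known, so the shares here and below describe them and test nothing. With the stricter limit of 0.15 in a single condition, 8 member probes oscillated in LD (background 16.8%) and 7 in DD (background 10%). An F test in limma on the 24-h cosine and sine, with p-values adjusted by Benjamini and Hochberg's method across the detected probes and a limit of 0.05, called 7 member probes in LD (background 11.9%) and 3 in DD (background 3.11%). The 3 in DD were hsf2, serpinh1b and hspe1. In the second cycle alone 1 of them, serpinh1b, passed in DD (0.217% of all probes), and in the first cycle alone none did, nor did any of all probes.

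**Figure D1:**
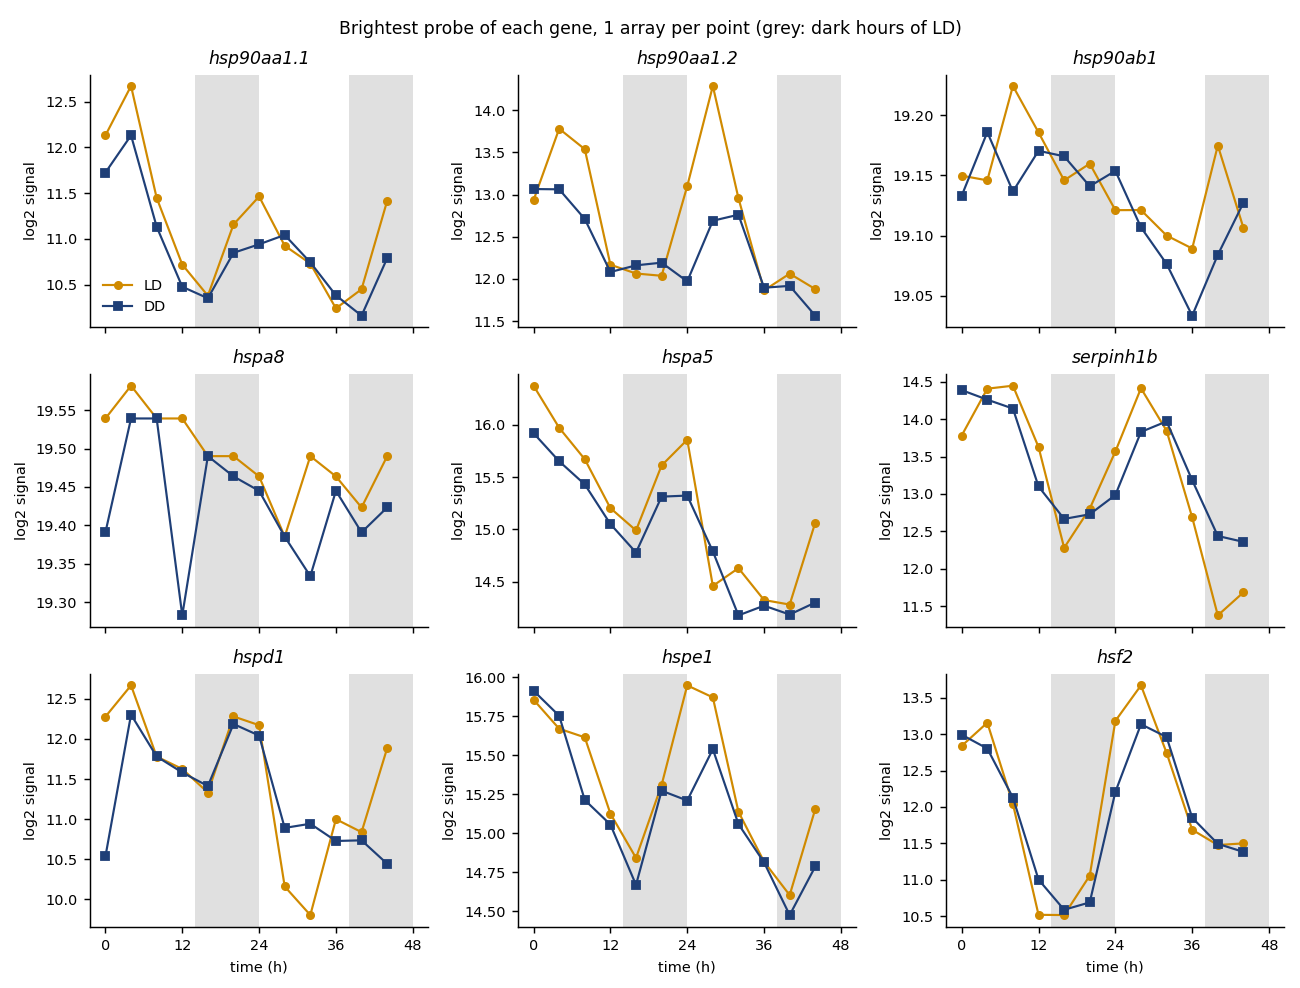
Log2 signal of the brightest probe of each gene (y axis, own scale in each panel) against time in h (x axis) in LD (circles) and DD (squares), 1 array per point, with the dark hours of LD in grey. hsf2, serpinh1b and hsp90aa1.2 peak between 0 and 8 h on the first day and between 28 and 32 h on the second, while hspa8 and hsp90ab1 span under 0.3.

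Among the transcription factors, hsf2 had the widest swing of any member. hsf2 is one of several heat shock factors and in mammals acts in development as well as in stress. In LD its log2 level ran from 10.51 at 16 h through a median of 11.86 to 13.67 at 28 h. In DD it ran from 10.59 at 16 h through a median of 11.99 to 13.14, also at 28 h. It was high within 4 h of lights-on on both days, and the LD and DD ranges overlapped almost entirely. The fitted amplitude, from mean to peak, was 1.33 ± 0.19 (SE) in LD and 1.09 ± 0.19 in DD on the log2 scale, a 6.32-fold and a 4.56-fold swing from trough to peak. Both rhythms passed in limma, with adjusted p = 0.00022 in LD and 0.0047 in DD. By LD amplitude it ranked 182 of the 35412 probes, and serpinh1b, at 1.33 ± 0.16, ranked 183.

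hsf2 peaked at circadian time (CT) 3.34 ± 0.53 h in LD and CT 4.34 ± 0.65 h in DD. CT 0 is the hour of lights-on. The difference of 1.00 h was close to its SE of 0.84 h. On the second day hsf2 was higher than at the same hour of the first in 11 of 12 comparisons, by a mean of 0.58 ± 0.50 (SD) on the log2 scale. It was the one member with a brightest-probe mean in that direction.

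The gene whose course over the 24 arrays was most like that of hsf2 was the clock gene per3, a period-family repressor, with Pearson r = 0.962 (0.977 in LD and 0.947 in DD). It was followed by mylipb (r = 0.928), a ubiquitin ligase named for myosin light chain, and xkr9 (r = 0.922). These are the highest of 10957 genes, given as a description, and the arrays they share include the same slides. No other listed heat shock factor gene or regulator oscillated in both conditions, among 4 with a detected probe. hspbap1, which encodes a protein that binds the small heat shock protein Hspb1, passed in limma in LD (adjusted p = 0.034) with an amplitude of 0.54 ± 0.14 and a peak at CT 13.0. It was named after its values were seen.

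Of the cytosolic chaperones, hsp90aa1.1 was high at the start of the day. In LD its log2 level ran from 10.24 at 36 h through a median of 11.04 to 12.67 at 4 h. In DD the range was 10.16 at 40 h, median 10.82 and 12.13 at 4 h. The 4 h array was the highest in both conditions, and the second-day peaks were lower, at 11.46 in LD (24 h) and 11.04 in DD (28 h). The amplitude was 0.78 ± 0.16 in LD (adjusted p = 0.0098 in limma) and 0.65 ± 0.16 in DD (adjusted p = 0.073). The DD rhythm passed when the LD array at 4 h or at 28 h was left out of the joint fit (adjusted p = 0.029 in both). The second probe of hsp90aa1.1 followed the first with r = 0.981 and gave 0.79 ± 0.16 and 0.54 ± 0.16. Its LD peak lay at CT 1.73 ± 0.80 h, at CT 2.86 in the first cycle alone and at CT 23.6 in the second alone.

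hsp90aa1.2 neighbours hsp90aa1.1 on the same chromosome, with no protein-coding gene between them. Its log2 level in LD ran from 11.86 at 36 h through a median of 12.55 to 14.29 at 28 h. In DD it ran from 11.57 at 44 h through a median of 12.18 to 13.06 at 0 h. The LD arrays at 4, 8, 24 and 28 h lay above all 12 DD arrays, and the other 8 overlapped with them. The amplitude was 1.04 ± 0.14 in LD and 0.52 ± 0.14 in DD, a DD to LD ratio of 0.498. hsp90aa1.2 passed in LD (adjusted p = 0.00011 in limma) and not in DD (adjusted p = 0.091).

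The methods behind these data also fit a template with a 24-h cosine in LD and a constant trough in DD, which marks a peak that is lower in darkness. Published calls from these same arrays already listed hsp90aa1.2 by this template, in a class named fast light-induced for its LD phase. Here its brightest probe was the 1 member probe that met the template limit (r = 0.739, p = 3.8e-05, limit 0.0001), where 1.42% of all detected probes did. The best phase is picked on the same data, so this p is a limit and not a significance. In either 24-h cycle alone 0 members met it, as did 0.257% of all probes in the first and 0.409% in the second. No member met the limit for a raised trough in DD, which 0.791% of all probes did. The dimmer probe of hsp90aa1.2 correlated with the brighter at r = 0.80. It had amplitudes of 0.60 ± 0.12 in LD and 0.23 ± 0.12 in DD, and missed the template limit (r = 0.548). How far probes of these 2 neighbouring genes pick up each other's transcript was not tested. Over the 24 arrays the brightest probes of the 2 genes correlated at r = 0.616.

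Nearest in course to hsp90aa1.1 were rab5if (r = 0.895), mtr (r = 0.88), which encodes methionine synthase, and mcmbp (r = 0.877). Nearest to hsp90aa1.2 were atf6b (r = 0.919), a membrane-bound factor of the endoplasmic reticulum stress response, agpat9l (r = 0.908) and decr2 (r = 0.879). None of the 13 detected markers of skeletal muscle, such as actins, creatine kinases and fast myosin light chains, oscillated in LD and DD. No myosin heavy chain gene of that list had a matched probe. Their median LD amplitude was 0.06, and their mean log2 level stayed between 17.8 and 18.1 on all 24 arrays. These levels lie near the top of the signals, where quantile normalization narrowed the spans of hspa8 and hsp90ab1, given below.

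hspa8 (HSC70, the constitutive cytosolic HSP70) and hsp90ab1 (the constitutive HSP90) were the flattest members on their brightest probes. The mean signal of that hspa8 probe ranked 5 of 35412, which is a rank of signals and not of transcripts. Its log2 level ran from 19.39 through a median of 19.49 to 19.58 in LD and from 19.28 through 19.43 to 19.54 in DD. The LD array was at or above the DD array in all 12 pairs, by a mean of 0.06 ± 0.04 (SE, adjusted p = 0.43 in limma). The signal of the brightest hsp90ab1 probe ranked 51, and its level ran from 19.09 through 19.15 to 19.22 in LD and from 19.03 through 19.13 to 19.19 in DD. The spans over the 24 arrays were 0.30 for hspa8 and 0.19 for hsp90ab1 under quantile normalization, and 0.67 and 0.56 when each array was scaled by its 75th percentile instead.

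The dimmer probes of both genes gave another picture. Between them, the other hspa8 probes spanned 1.17 to 1.30 and the other hsp90ab1 probes 0.80 to 1.32 on the log2 scale. The 2 dimmer hspa8 probes correlated with each other at r = 0.988 and with the brightest probe at 0.224 and 0.236. For hsp90ab1 the correlations between probes ran from -0.345 to 0.897. The dimmer hspa8 probes had fitted peaks at CT 14.9 and CT 15.1 in LD and CT 16.7 and CT 16.9 in DD, in the evening. The brightest of the dimmer hsp90ab1 probes peaked at CT 15.8 in LD and CT 17.0 in DD, with amplitudes of 0.27 ± 0.11 and 0.35 ± 0.11. No probe of either gene passed in limma (adjusted p from 0.19 to 0.99). By the g test that hsp90ab1 probe oscillated in LD (p = 0.071), another one in DD (p = 0.057), and none in both. The first of them narrowly missed the rule for both conditions. In DD 24 h was its dominant period too, with g test p = 0.516 against the limit of 0.5. Which probe stands for the transcript was not tested.

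**Figure D2:**
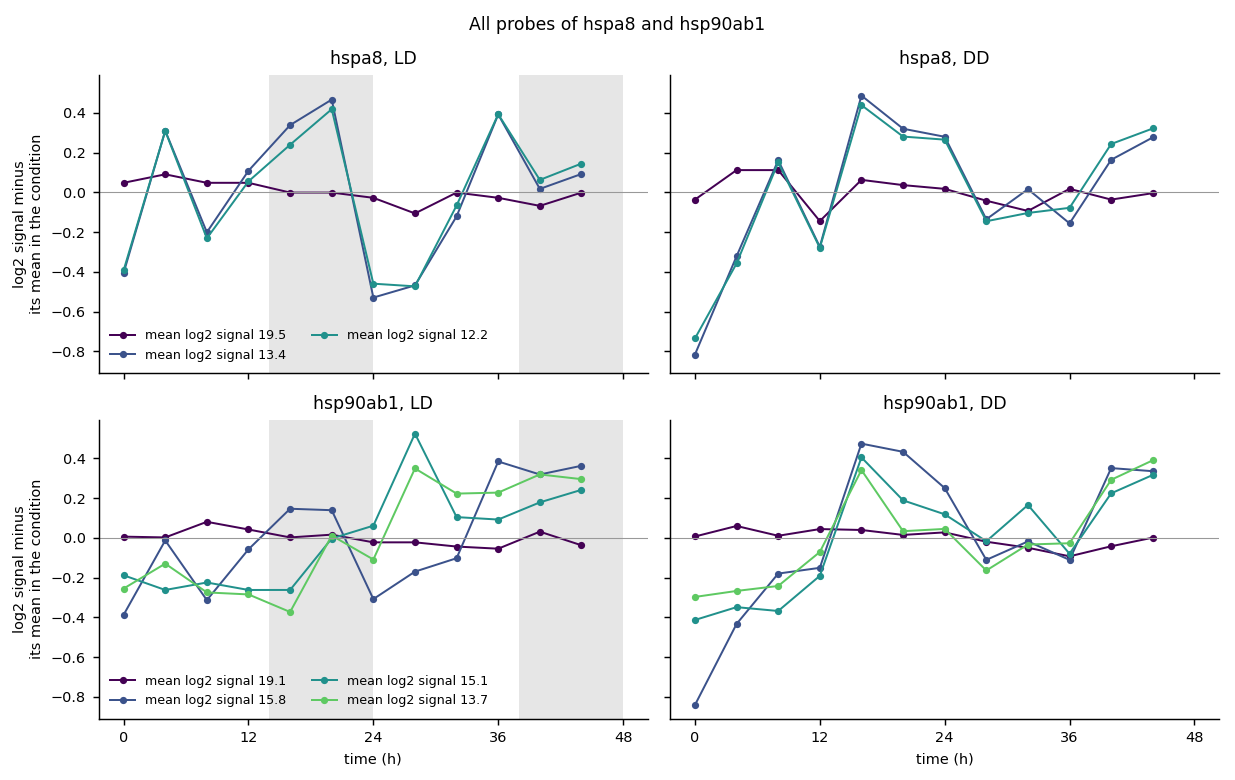
Log2 signal of every probe of hspa8 (top) and hsp90ab1 (bottom) minus its mean in the condition (y axis) against time in h (x axis), LD on the left with dark hours in grey and DD on the right. The darkest line is the brightest probe, which stays near 0, while the dimmer probes span up to 1.32, and in DD all 5 are lowest on the 0 h array.

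The closest courses to the brightest hspa8 probe were those of crk (r = 0.819), cct5 (r = 0.786), a subunit of the cytosolic chaperonin, and mc1r (r = 0.744). For the brightest hsp90ab1 probe they were ankef1a (r = 0.793), pimr132 (r = 0.769) and alg9 (r = 0.763). These correlations are over spans under 0.3.

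In the endoplasmic reticulum, serpinh1b had the second largest amplitude of the members, in LD within its SE of that of hsf2. It encodes HSP47, the chaperone of procollagen. Its log2 level in LD ran from 11.38 at 40 h through a median of 13.60 to 14.45 at 8 h. In DD it ran from 12.36 at 44 h through a median of 13.14 to 14.39 at 0 h. The highest values of both conditions were close, while LD minus DD was -1.06 at 40 h and -0.68 at 44 h. The amplitude was 1.33 ± 0.16 in LD (adjusted p = 6.3e-05 in limma) and 0.89 ± 0.16 in DD (adjusted p = 0.0094). The fitted peaks, CT 5.17 ± 0.47 h and CT 5.22 ± 0.71 h, were the latest of the 5 oscillating genes.

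Its nearest courses were krt99 (r = 0.945), prdx6 (r = 0.932), an antioxidant enzyme, and pdcd6 (r = 0.930). Of 10 detected markers of fibrillar collagen and matrix, 0 oscillated in both conditions and 0 passed in limma in LD (adjusted p from 0.35 to 0.86). Their median LD amplitude was 0.26, and fitted LD peaks of some lay near that of serpinh1b, such as col1a1a with 0.39 ± 0.19 at CT 3.61 ± 1.90 h and lum with 0.25 ± 0.16 at CT 5.93 ± 2.49 h. Whether their rhythm differs from that of serpinh1b was not tested. Their mean log2 level was 13.8 to 14.2 on the first day and 12.9 to 13.7 on the second in LD. On the second day serpinh1b too was lower in 10 of 12 comparisons at the same hour, by 0.52 ± 0.47 (SD) on the log2 scale. The part of matrix-producing cells in this was not tested.

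hspa5 encodes BiP, the HSP70 of the endoplasmic reticulum and a sensor of unfolded proteins there. It did not oscillate by the rule, because 24 h was not its dominant period. In LD its log2 level ran from 14.28 at 40 h through a median of 15.13 to 16.37 at 0 h. In DD it ran from 14.18 at 32 h through a median of 14.92 to 15.92 at 0 h. It was highest on the first array of each condition, with a smaller second maximum at 24 h (15.86 in LD and 15.32 in DD). At the same hour, every second-day array was below its first-day partner, in 12 of 12 pairs. The mean difference was -0.86 ± 0.30 (SD) on the log2 scale, a 1.81-fold lower level. The second probe gave -0.81 ± 0.35 and also 12 of 12. Among all probes, 7.69% were lower at all 12 hours and 7.73% were higher at all 12, and these 2 were the member probes that did so. The first-day and second-day arrays lay partly on different slides and the larvae were a day older, so slide and age cannot be told apart here.

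The 24-h component of hspa5 depended on how that shift was handled. As measured, its LD amplitude was 0.59 ± 0.22 (adjusted p = 0.17 in limma) with a peak at CT 0.74 ± 1.43 h. With a straight line removed over the 48 h, the amplitude was 0.45 with adjusted p = 0.0075 and a peak at CT 22.7, and hspa5 then oscillated in LD and DD, in a setting that called 17.1% of all probes. It also passed in the first cycle alone (adjusted p = 0.045), with slide as a random block (0.032) and without the LD array at 28 h (0.044).

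The closest of all courses to a member was that of creld2 to hspa5, with r = 0.989. creld2 encodes a protein that is induced with BiP in the unfolded protein response. tars1 (r = 0.967), a threonyl-tRNA synthetase, and hyou1 (r = 0.963), an HSP110-type chaperone of the same compartment, came next. Other genes of the endoplasmic reticulum shared the shift between the days. Of 22 detected genes on that list, 12 were lower at all 12 hours of the second day and 1 was higher. The median difference was -0.52, where all probes had 0.03. creld2 differed by -1.09 ± 0.34 (SD), pdia4 by -0.85 ± 0.26, dnajb11 by -0.73 ± 0.22 and hsp90b1, the HSP90 of the endoplasmic reticulum, by -0.69 ± 0.31. The 1 higher gene was ddit3 (CHOP), a transcription factor of endoplasmic reticulum stress, at 0.56 ± 0.29. These genes were named after their values were seen. Of the 10 matrix markers, 8 were also lower at all 12 hours, with a median of -0.66, and 3 of 13 muscle markers, with a median of -0.02. The part of matrix-producing cells in the hspa5 shift was not tested.

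**Figure D3:**
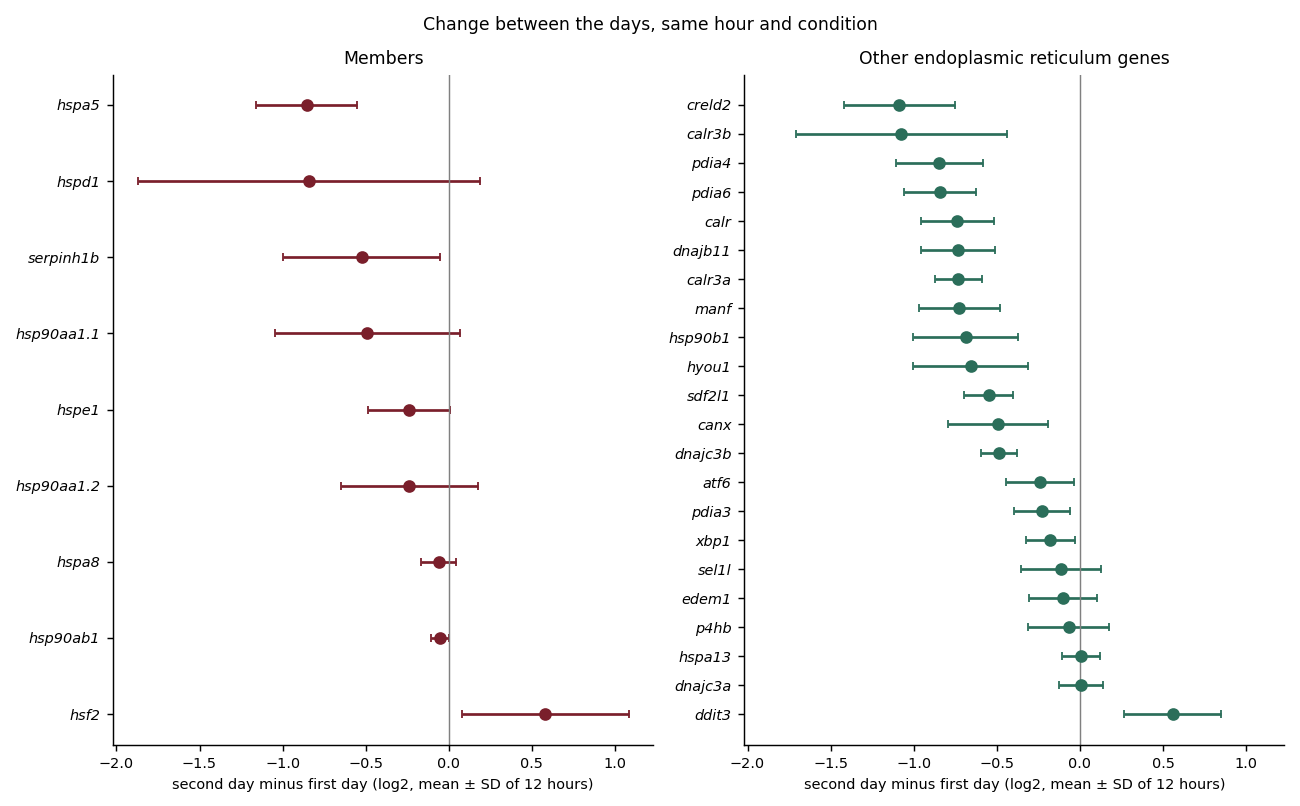
Second-day minus first-day log2 signal at the same hour and condition (x axis), as the mean (point) and SD (bar) over 12 hours, for the members on the left and for the 22 other endoplasmic reticulum genes on the right. hspa5 is the lowest member at -0.86 and hsf2 the highest at 0.58, and most of the endoplasmic reticulum genes lie left of 0.

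On that list 3 of 22 genes oscillated in both conditions, close to the 12.7% of all probes. dnajc3a, an inhibitor of the kinase PERK and a cochaperone of BiP, had an LD amplitude of 0.55 ± 0.06 with its peak at CT 0.12 ± 0.38 h. xbp1, the factor spliced by IRE1, had 0.31 ± 0.07 at CT 2.25 ± 0.86 h, and hspa13, an HSP70-like protein, had 0.19 ± 0.05.

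The mitochondrial chaperonin genes hspd1 (HSP60) and hspe1 (HSP10) lie next to each other in the annotation, with no protein-coding gene between them. hspe1 oscillated and hspd1 did not. In LD the log2 level of hspe1 ran from 14.60 at 40 h through a median of 15.23 to 15.95 at 24 h. In DD it ran from 14.48 at 40 h through a median of 15.13 to 15.91 at 0 h. It was high at 0 and 24 h or 28 h and lowest at 16 and 40 h in both conditions. The amplitude was 0.57 ± 0.09 in LD (adjusted p = 0.00069 in limma) and 0.50 ± 0.09 in DD (adjusted p = 0.0068), with peaks at CT 2.45 ± 0.59 h and CT 2.84 ± 0.68 h.

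hspd1 ran from 9.80 at 32 h through a median of 11.70 to 12.67 at 4 h in LD, and from 10.44 at 44 h through a median of 11.18 to 12.30 at 4 h in DD. Its level was uneven: the 0 h array stood at 12.28 in LD and 10.53 in DD, and the 28 and 32 h arrays at 10.16 and 9.80 in LD and 10.89 and 10.94 in DD. The second hspd1 probe followed the first at r = 0.920. The residual around the 24-h curve gave SEs of 0.30 on amplitudes of 0.64 in LD and 0.21 in DD (adjusted p = 0.31 and 0.92 in limma). hspd1 was lower on the second day at 11 of 12 hours, by 0.84 ± 1.03 (SD). Over the 24 arrays hspd1 and hspe1 correlated at r = 0.340, less than hspd1 with hspa5 (r = 0.731) or hspe1 with hsp90aa1.1 (r = 0.808).

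hspe1 was closest to nme2a (r = 0.960), a nucleoside diphosphate kinase, folr (r = 0.946) and uqcc6 (r = 0.942), an assembly factor of complex III. hspd1 was closest to sfxn3 (r = 0.901), a mitochondrial serine carrier, setb (r = 0.876) and ctnnb2 (r = 0.866). Among other mitochondrial chaperone and protease genes, 6 of 8 oscillated in both conditions. hspa9, the mitochondrial HSP70, had an LD amplitude of 0.44 ± 0.07 and a peak at CT 2.58 ± 0.58 h. grpel1, its nucleotide exchange factor, had 0.42 ± 0.10 at CT 1.39 ± 0.87 h, and clpxa, a protease subunit, had 0.38 ± 0.08 at CT 10.8 ± 0.75 h.

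The 5 members that oscillated in both LD and DD did so in one part of the day. By the g test a dimmer hsp90ab1 probe oscillated in LD alone, with a fitted peak in the evening at CT 15.8. Another oscillated in DD alone, with its peak at CT 17.2. Ordered by fitted LD peak, the 5 members were hsp90aa1.1 at CT 1.73, hspe1 at CT 2.45, hsf2 at CT 3.34, hsp90aa1.2 at CT 4.31 and serpinh1b at CT 5.17. Each stood 0.71 to 0.97 h from its neighbour, with a combined SE of 0.69 to 1.00 h, and no neighbouring pair differed by as much as 2 SE. The order in DD over both cycles was the same, from CT 2.65 to CT 5.22. The DD peaks differed between the cycles. In the first alone, hsp90aa1.2 (CT 3.09) came before hsf2 (CT 3.54), and in the second after it (CT 6.31 and CT 5.47). From the first to the second cycle, serpinh1b went from CT 4.14 to CT 6.45 and hspe1 from CT 2.12 to CT 3.70. Of all 4513 probes that oscillated in both conditions, 34.4% had an LD peak between CT 0 and CT 6 and 22.7% between CT 1.5 and CT 5.5. Both windows were drawn after the members' peaks were known, so all 5 lie in them by construction and nothing is read from these shares. These genes share arrays and slides.

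**Figure D4:**
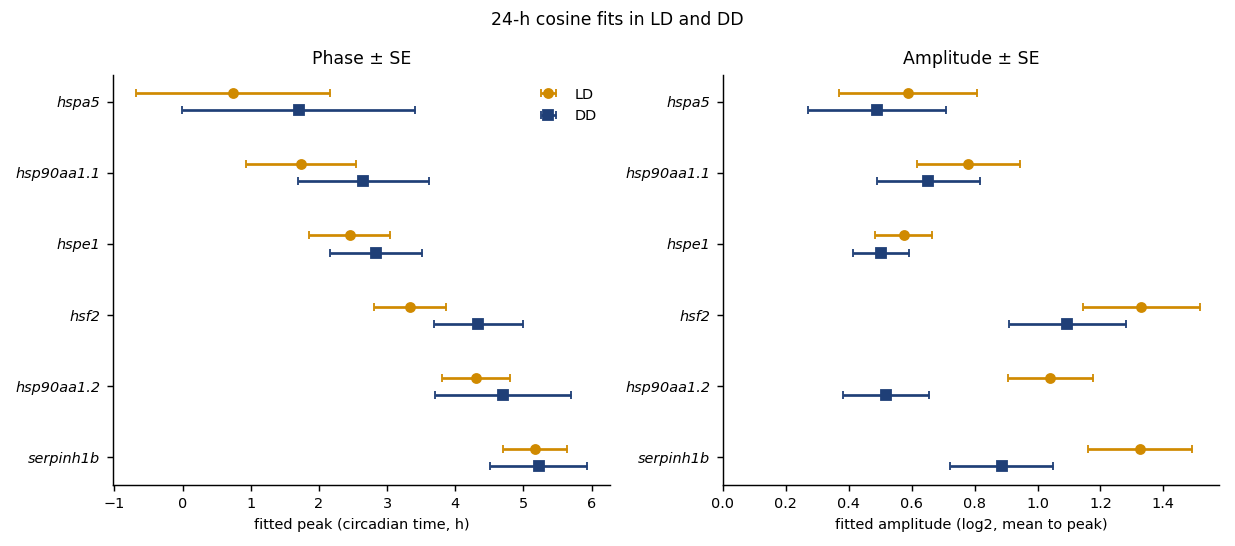
Fitted peak in circadian hours (left, x axis) and fitted amplitude from mean to peak on the log2 scale (right, x axis) of the 24-h curve, with SE bars, for hspa5 and the 5 genes that oscillated, in LD (circles) and DD (squares). Peaks run from CT 0.74 to CT 5.17 in LD, and every amplitude is lower in DD than in LD.

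All 5 had a lower fitted amplitude in DD than in LD, with DD to LD ratios of 0.498 for hsp90aa1.2, 0.668 for serpinh1b, 0.823 for hsf2, 0.837 for hsp90aa1.1 and 0.875 for hspe1. The same direction held for 78.3% of all oscillating probes, whose median ratio was 0.814. The difference between the LD and DD rhythms was tested by the interaction in limma. It passed for 0 of the 18 member probes (background 0%, with 1191 probes at an unadjusted p under 0.05 and a smallest adjusted p of 0.052). The 1 member probe with an unadjusted p under 0.05 was the brightest of hsp90aa1.2. This fit did not pair LD and DD arrays by time point, so change shared by both outside the 24-h curve entered its spread. A rhythm that did not pass is thus not shown to be equal in LD and DD.

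No member passed for a difference in mean level between LD and DD in the main fit. In limma 0 of 18 member probes passed, where 3.17% of all probes were higher and 3.32% lower in LD. The largest difference was that of hsp90aa1.2, 0.38 ± 0.14 (SE) higher in LD with adjusted p = 0.10. hsp90aa1.1 was 0.25 ± 0.16 higher, hspa5 0.27 ± 0.22 and hspe1 0.18 ± 0.09 (adjusted p from 0.26 to 0.53). With the time point as a block in place of the 24-h terms, hsp90aa1.1 and both hspa5 probes passed as higher in LD (adjusted p = 0.033 and 0.030 for the brightest probes), in a fit that called 17.2% of all probes. At 0 h, before any difference in lighting, LD minus DD was 0.41 for hsp90aa1.1 and 0.45 for hspa5 on their brightest probes. It was -0.13 for hsp90aa1.2 and -0.06 for hspe1. The part of light in these levels was not tested. With slide as a random block, 0.325% of all probes passed and no member did. Leaving out the 0 h DD array alone brought hsp90aa1.2 to adjusted p = 0.041.

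Light itself was asked about through the hours when LD larvae were lit. The contrast took LD minus DD at 4, 8, 12, 28, 32 and 36 h and subtracted LD minus DD at the other 6 time points. It passed for 0 of 18 member probes in limma, none of them at an unadjusted p under 0.05, and for 0.00565% of all probes upward and 0% downward. For hsp90aa1.2, LD minus DD was 0.57 ± 0.61 (SD, n = 6 time points) in the light and 0.20 ± 0.49 in the dark. It was 1.60 at 28 h and 1.13 at 24 h, the latter at lights-on. For hsf2 the values were -0.01 ± 0.38 and 0.20 ± 0.42, and for serpinh1b 0.16 ± 0.41 and -0.35 ± 0.59. The contrast was fitted on the mean of lit and of other hours in each condition, without 24-h terms or pairing by time point. A gene's own rhythm thus entered the SE, which was 0.08 to 0.76 for the brightest probes and 0.76 for hsf2. This limits what the contrast could detect, more so for members with a wide swing.

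Partners of the cytosolic chaperones were counted from lists of named genes. Of 17 detected HSP90 partners, 6 oscillated in both conditions, among them unc45b, the myosin cochaperone, with an LD amplitude of 0.71 ± 0.20 at CT 1.87 ± 1.07 h. fkbp4, an immunophilin, had 0.50 ± 0.09 at CT 5.35 ± 0.65 h. stub1, a ubiquitin ligase that binds both chaperones, had 0.39 ± 0.11 at CT 15.5 ± 1.05 h. Of 23 HSP70 genes and partners, 10 oscillated in both conditions. The largest LD amplitudes among these 10 were those of hspa4a, 0.61 ± 0.15 at CT 1.18 ± 0.94 h, hspa14, 0.51 ± 0.09 at CT 23.6 ± 0.64 h, and dnajb1b, a J-domain cochaperone, 0.42 ± 0.05 at CT 7.69 ± 0.50 h. The largest on the whole list was that of hsp70l, a heat-inducible HSP70, which oscillated in LD by the g test but not in both conditions, with 0.91 ± 0.19 at CT 5.499 ± 0.793 h (adjusted p = 0.0087 in limma), and which was named after its values were seen. Of 12 genes of the cytosolic chaperonin and prefoldin, 2 oscillated, pfdn2 and pfdn6, with LD amplitudes of 0.32 ± 0.11 and 0.16 ± 0.06. Of 12 small heat shock protein genes, 1 did, hspb7, with 0.33 ± 0.08 at CT 4.29 ± 0.92 h.

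These counts are of genes, each read from 1 probe, and 12.7% of all probes oscillated. hsp90b1 is on both the HSP90 and the endoplasmic reticulum list. trap1, which oscillated in both conditions, is on the HSP90 and the mitochondrial list and is counted in each. The median LD amplitude of the 9 members, chosen with earlier results known, was 0.64. It was 0.21 for all probes, 0.35 for the HSP90 partners, 0.22 for the HSP70 partners and 0.10 for the chaperonin list. In mean level, 1 of 17 HSP90 partners, 6 of 23 HSP70 partners and 4 of 8 mitochondrial genes were higher in LD by limma. None of these lists had a lower gene, while the endoplasmic reticulum list had 2 higher and 1 lower of 22. Of all probes, 3.17% were higher and 3.32% lower. LD and DD lay on separate slides, so condition and slide cannot be told apart in these counts. No gene of any list passed the light contrast.

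At 48 and 50 hpf no member passed in mitfa morphants. mitfa encodes a transcription factor of melanocytes, and the 3 morphant arrays were compared with the 4 control morphant and WT arrays. In limma 0 of 18 member probes passed, with 4 at an unadjusted p under 0.05, where 0.757% of all 30507 detected probes were higher and 0.443% lower. By the methods' t-test, which asks for p below 0.02 and a 2-fold change, 0 members were called and 118 probes were higher and 154 lower.

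**Figure D5:**
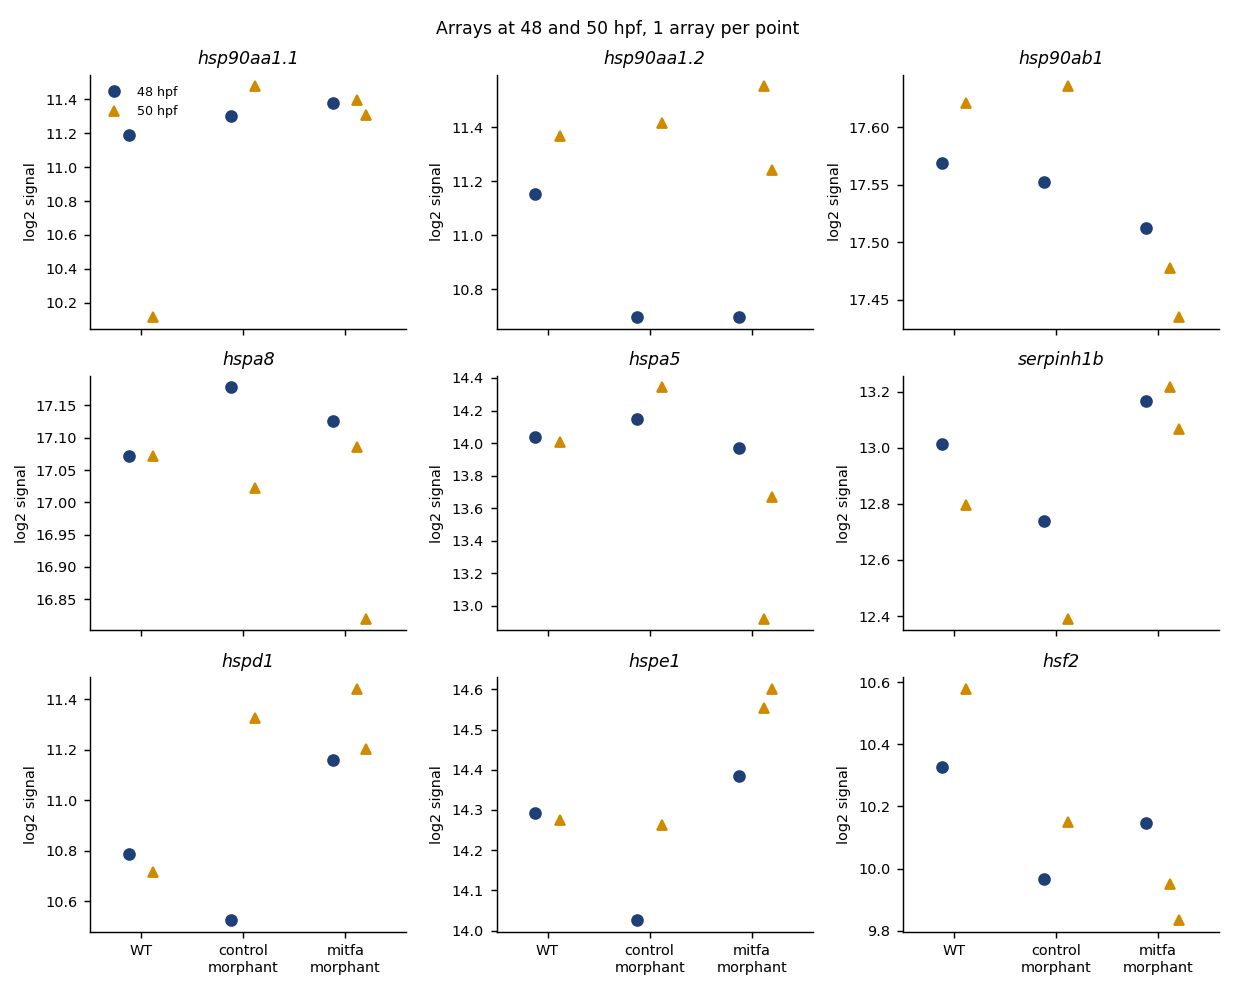
Log2 signal of the brightest probe of each gene (y axis, own scale in each panel) by kind of embryo (x axis), at 48 hpf (circles) and 50 hpf (triangles), 1 array per point. The 3 mitfa morphant arrays lie apart from the other 4 for hspa5 and hsp90ab1, which are lower, and for serpinh1b and hspe1, which are higher.

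The largest difference was that of hspa5. Its log2 levels were 13.97 at 48 hpf and 12.92 and 13.67 at 50 hpf in the mitfa morphants, 14.15 and 14.34 in control morphants and 14.04 and 14.004 in WT. All 3 morphant arrays were below all 4 others, but 1 of them, the first at 50 hpf, was far below the rest. The difference was -0.61 ± 0.24 (SE), with adjusted p = 0.18 in limma, and -0.31 without that array. The second hspa5 probe gave -0.60 ± 0.23. Groups that do not overlap in this way were found for 11% of all probes in the lower direction and 11.9% in the higher.

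Other genes of the endoplasmic reticulum list were also lower in the morphants, 20 of 22 by sign, with a median of -0.29 against 0.01 over all probes. None of them passed. Control morphants stood on the same side of WT for this list, with 19 of 22 genes lower and none past the limit. The median was -0.18, against 0.003 over all probes. The member hspa5 was higher in control morphants than in WT, by 0.22 ± 0.32 (SE). The part of the injection in these values was not tested. calr, the chaperone calreticulin, differed by -0.58 in the mitfa contrast and by -0.75 between control morphants and WT. hsp90b1 differed by -0.59 ± 0.14 (adjusted p = 0.069 in limma), pdia4 by -0.50 ± 0.12 and creld2 by -0.45 ± 0.12, and hyou1 by -0.01 ± 0.12, all named after their values were seen. The mean level of the matrix markers was 11.5 to 11.6 in the morphants and 11.7 to 11.8 in the other arrays, and its part in these values was not tested.

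serpinh1b differed the other way. It stood at 13.17, 13.21 and 13.07 in the mitfa morphants, at 12.74 and 12.39 in control morphants and at 13.01 and 12.80 in WT. The groups did not overlap, and the difference was 0.41 ± 0.16 (adjusted p = 0.17). hspe1 stood at 14.39, 14.55 and 14.60 in the morphants and between 14.03 and 14.29 in the other 4, a difference of 0.30 ± 0.12 (adjusted p = 0.19). hsp90ab1 was lower by 0.12 on its brightest probe, with morphants between 17.43 and 17.51 and the others between 17.55 and 17.64 (adjusted p = 0.52). On its dimmer probes the groups overlapped, with differences of -0.14, -0.12 and -0.03. For the other 5 genes the groups overlapped, with differences from -0.28 for hsf2 to 0.43 for hspd1.

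No member passed between 50 and 48 hpf, with 0 of 18 probes past the limit and 2 at an unadjusted p under 0.05. Of all probes, 0.00656% were higher and 0.233% lower at 50 hpf. The smallest adjusted p was that of hsp90aa1.2, 0.27. It stood at 11.15, 10.696 and 10.697 in WT, control and mitfa morphants at 48 hpf and at 11.37, 11.42, 11.55 and 11.24 at 50 hpf, a difference of 0.56 ± 0.16. All 4 arrays at 50 hpf were above all 3 at 48 hpf. The share of all probes that part by age in this way was not counted. Age, slide and any difference in the hour of the day cannot be told apart here. The dimmer probe of the gene differed by 0.00 ± 0.21. Its WT array at 50 hpf stood apart at 8.67, with the other 50 hpf arrays at 9.32 to 9.54. The 48 hpf arrays stood at 9.13 to 9.28.

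Between control morphants and WT, 2 arrays each, no member passed either, with 0 of 18 probes past the limit and 3 at an unadjusted p under 0.05. Of all probes, 0% were higher and 0% lower (4880 at an unadjusted p under 0.05). The 3 were the dimmer probes of hsp90ab1, higher in control morphants by 0.32 to 0.48, against -0.001 on its brightest probe. The widest gap was in hsp90aa1.1, where the 50 hpf WT array stood at 10.11 and the other 6 between 11.19 and 11.48. The second probe of hsp90aa1.1 showed the same array apart, at 7.90 against 8.81 to 9.09. The difference was 0.74 ± 0.31 (adjusted p = 0.32 in limma).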

How the data were processed

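The members, gene lists and tests were chosen with earlier results of these data known. Per the file headers, the authors' Agilent Feature Extraction files (10.7.3.1 in the headers, 10.5.1 in the submitters' processing notes) hold a background-corrected, 1-colour intensity per spot. The deposited matrix holds log2 values of the same arrays that the authors quantile-normalized, and correlated at 0.9999 or more with those computed here from the scanner files.

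Control spots and flagged outliers were left out, spots of a probe averaged, and the log2 intensity quantile-normalized within the 24 time-course arrays and within the 7 others. Probes well above background on at least 75% of a set were tested: 35412 and 30507. Of 43603 probes, 16624 were named through RefSeq accessions (GRCz12tu), none with several symbols. A gene was read from its brightest detected probe, and lists are counted by gene. limma 3.58.1 was run in R 4.3.3. The time-course fit held a condition mean plus 24-h cosine and sine per condition. The light contrast was fitted on means of lit and other hours per condition instead. Scripts were tested on simulated data. Replicate arrays within a group are pools whose independence is not given in the sources used here, so p-values measure the spread between these pools. Genes were named by rule (every member, the up to 3 oscillating genes of a list with the largest LD amplitude, the 3 likest courses), with exceptions marked in the text. Promoter motifs and protein sequences were not analysed here.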

Additional observations from a re-analysis of the deposited data

How the results depend on the processing

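Of the counts of member probes, 93 kept within 1.5 times their value and 8 moved, over normalization, background, filter, slide, time-point and cycle alternatives. The 93 include counts that were 0 in the main fit and stayed 0, such as those of the light and mitfa contrasts. Without the first cycle, 4 member probes oscillated in LD in place of 8 (17.7% of all probes). Of the member probes, 0 had a decreased peak in DD in place of 1 (0.409%), and 1 was rhythmic in DD by limma in place of 3 (0.217%). Without the second cycle, 0 had a decreased peak (0.257%) and 0 were rhythmic in DD by limma, in a fit of 12 arrays that called 0 of all probes. With a straight line removed, 1 was rhythmic in DD (2.88%), since serpinh1b (adjusted p = 0.050002) and hspe1 (0.0512) missed the limit. With slide as a random block (correlation within slides 0.502), 5 were (5.82%), both hsp90aa1.1 probes added. LD and DD arrays pair by time point, and with that pairing as a block 3 probes (of hsp90aa1.1 and hspa5) differed in mean level in place of 0 (17.2%). The cause was not tested. With 1 array left out, a choice made after seeing the data, 7 to 9 of the 18 member probes were rhythmic in LD and 3 to 4 in DD. Of these probes, 0 to 1 differed in mean level (hsp90aa1.2 without the DD array at 0 h), and 0 changed in the other contrasts. The g test needs even spacing and was not rerun in this way. hspe1 in LD missed the limit in the first cycle alone (adjusted p = 0.085). No called value reversed. The number of arrays limits the precision, and at 48 and 50 hpf the median signal was 2.07 to 2.59 times background.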
